A study of Mus musculus with 27 samples.

Results

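Bone marrow and thymus were compared for the transcript levels of genes that make, break down or bind glycans, and of chemokine, cytokine, growth factor and adhesion genes. The 3 arrays that the labels give as bone marrow were set against the 3 given as thymus, 6 of the 27 arrays of the study. All animals were male mice of the inbred strain C57BL/6, of wild-type genotype and 6 to 8 weeks old, and no treatment beyond the wild-type state is named for any group. The bone marrow came from femurs. The array was a custom 1-colour Affymetrix design with 1813 probe sets. Its 702 mouse probe sets covered 573 genes, and each gene was read from the probe set with the highest mean over the 27 arrays. The remaining 21 arrays, 3 each of brain, kidney, liver, lung, lymph node, spleen and testis, served to estimate the spread between arrays and to place both tissues among others.

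Bone marrow is the site of blood formation in adult mice, where stem cells give rise to granulocytes, monocytes, red cells, platelets and B cells. The thymus takes up progenitors from the blood and turns them into T cells on a network of epithelial and connective tissue cells, and it makes few myeloid cells. Chemokines and their receptors guide these cells, and glycans such as sialyl Lewis x on leukocytes serve as ligands of selectins.

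Values are deposited intensities, the brightness of a probe set on a linear scale, and probe sets of different genes are not compared with each other in level. Differences are bone marrow minus thymus on the log2 scale, so that a difference of 1 is a doubling, with the standard error (SE) from limma. Genes with an adjusted p under 0.05 and a difference of at least 1 in size are called higher or lower. Precision is limited by the number of arrays. Since the labels do not tie arrays to separate animals, the p-values measure the spread between arrays, which may be technical. In whole tissue, fewer cells of a type and less RNA per cell cannot be told apart.

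Each of the 6 arrays correlated best with an array of its own tissue. Across the 573 genes, Pearson's r was 0.972 to 0.981 between bone marrow arrays and 0.976 to 0.988 between thymus arrays. It was 0.754 to 0.797 between bone marrow and thymus, below the 0.831 to 0.879 between thymus and lymph node. Thymus replicate 1 stood apart: it was the highest of the 3 thymus arrays in 331 genes, for example Aldoa, a glycolytic enzyme with 2641, 2641 and 2856 in bone marrow, against 5739.9, 1929 and 1878 in thymus. Without it, 31 genes were called higher, among them all 24 of the full comparison, and 23 were called lower, among them 22 of the 24. The human probe sets of the array gave a rough measure of non-specific signal in these mouse samples, with a median of 204 and a 95th percentile of 597 over the 6 arrays. A fold with one side near that median is a ratio of signals and not an exact ratio of transcripts. Of the 24 higher genes, 10 had a thymus mean under it and 14 had one under 1.5 times it, Ltf included. Of the 24 lower genes, 8 had a bone marrow mean under it and 16 under 1.5 times it, among them Ccl21b, Cxcl12, Dcn, Bgn and Lum. The multiple of 1.5 was chosen after seeing the data.

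Bone marrow differed from thymus in 48 genes, 24 higher and 24 lower. This is 8.38% of the genes tested, 4.19% in each direction. Genes of granulocytes and monocytes led the higher ones, with Ltf, Clec4a2, Cxcl2 and Ccr2. The chemokines Ccl21b, Ccl25 and Cxcl12 led the lower ones, with Ccr9, the receptor of Ccl25, followed by the matrix gene Dcn. The median difference over all 573 genes was -0.01. A further 138 genes had an adjusted p under 0.05 with a smaller difference, so that 186 genes (32.5%) differed at some size. The 3 bone marrow arrays lay above all 3 thymus arrays in 117 genes (20.4%) and below them in 137 (23.9%), and the arrays did not overlap in any of the 48 called genes. The largest adjusted p was 3.95e-05 among the higher genes and 0.00313 among the lower ones.

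**Figure D1:**
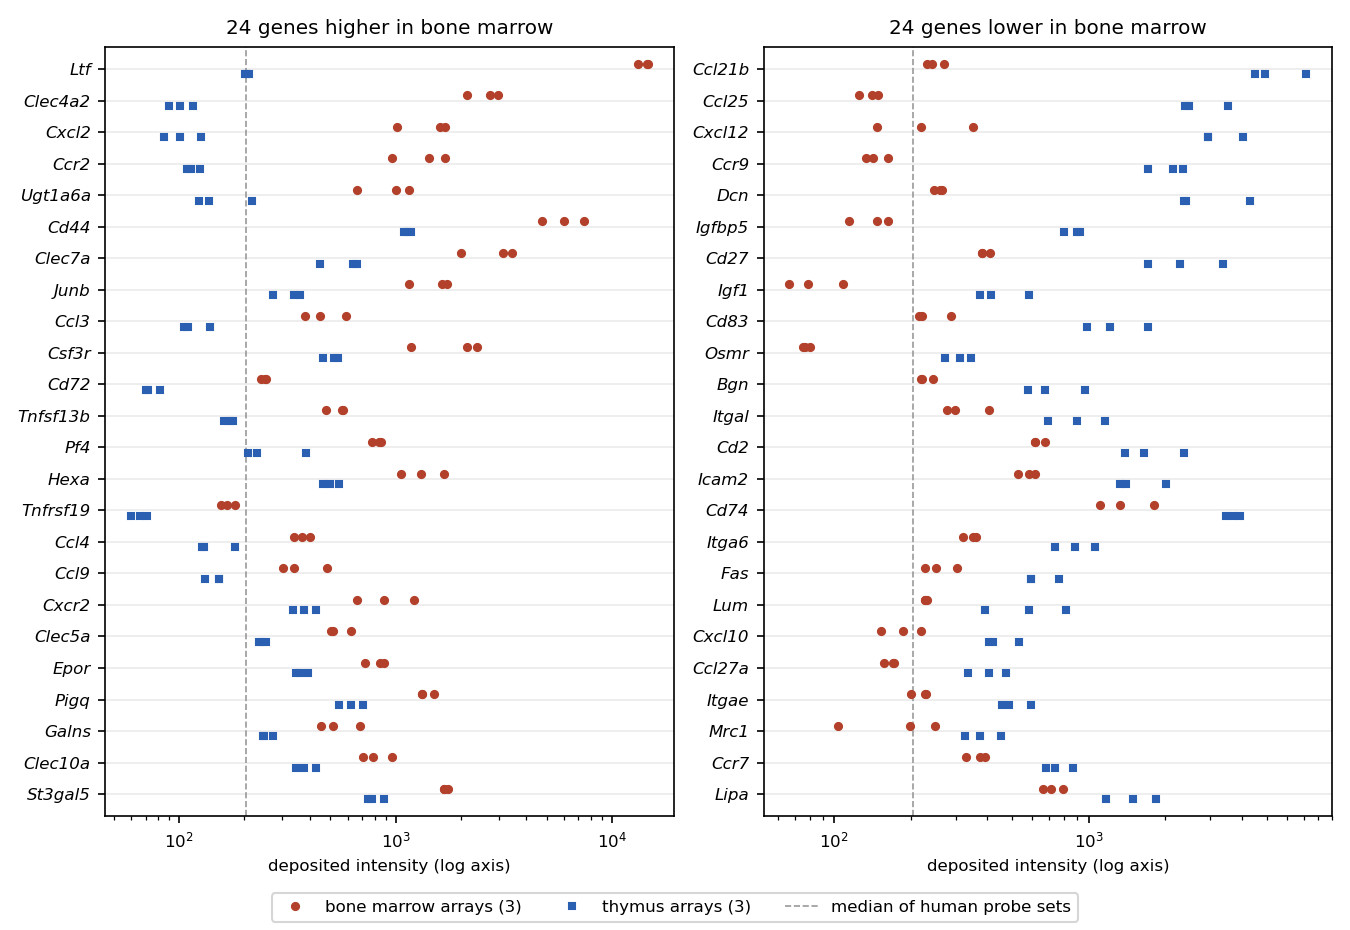
Deposited intensity (log axis) of the 24 genes called higher and the 24 called lower in bone marrow, with 3 bone marrow arrays (circles) drawn above 3 thymus arrays (squares) for each gene. The dashed line is the median of the human probe sets, 204. In every gene all circles lie on one side of all squares, from Ltf with a difference of 6.10 to Ccl21b with -4.45.

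Neutrophil genes were higher in bone marrow. Of 6 measured markers of neutrophils and their precursors, 4 were called higher and 0 lower, with a median difference of 1.20. In all 6 the bone marrow arrays lay above the thymus arrays. Among all genes tested, 4.19% were called higher and 20.4% had bone marrow above without overlap. Ltf encodes lactoferrin, an iron-binding protein of neutrophil secondary granules. It read 14644, 14527 and 13201 in bone marrow, against 204, 210.1 and 201 in thymus. Bone marrow was thus 68.8-fold higher, a difference of 6.10 ± 0.36 with an adjusted p of 1.97e-12, and the thymus signal was at the median of the human probe sets. No other tissue came near bone marrow, with means of 159 to 666 in the 7 remaining tissues.

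Csf3r, the receptor for granulocyte colony-stimulating factor, read 1177, 2368 and 2129 in bone marrow, against 544, 461 and 516 in thymus. The lowest bone marrow array still exceeded the highest thymus array by more than the whole spread of the thymus arrays, and the difference was 1.84 ± 0.18. A second mouse probe set of Csf3r had a lower signal and a larger difference of 5.85, with 724, 1685 and 1875 in bone marrow, against 28.0, 18.6 and 22.8 in thymus. Both probe sets thus gave the same direction, and the size depended on the probe set. Cxcr2, the receptor through which neutrophils follow CXC chemokines, read 665, 1209.7 and 881 in bone marrow, against 427, 335 and 377 in thymus, a difference of 1.24 ± 0.17. Clec5a, a myeloid C-type lectin that signals through an adaptor protein, averaged 545 ± 66.1 in bone marrow and 242 ± 8.76 in thymus (SD, n = 3 each). The sialic acid-binding lectins Cd33 and Siglece differed by 0.60 ± 0.13 and 0.88 ± 0.13, below the threshold on size. Siglece was called without bone marrow replicate 3, at 1.005. The summed level of the 6 markers was 18599 to 20876 in the bone marrow arrays and 2377 to 2815 in the thymus arrays. Such sums add the intensities of different probe sets and follow the brightest gene, here Ltf with 72.9% of the bone marrow sum. The other 5 markers summed to 4022 to 6349 in bone marrow arrays and 2167 to 2611 in thymus arrays. Mpo, Elane, S100a8 and Itgam, usual markers of this lineage, were not among the 573 genes.

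The promoters of Ltf and Csf3r are printed since these genes mark the granulocyte side of the comparison. Sequences are the 250 bases before the annotated start of transcription, from RefSeq on GRCm38.p6, and capitals mark matches to motifs on either strand. The motifs are those of PU.1 (GAGGAA), C/EBP (TTGCNNAA) and E proteins (CAGGTG).
Ltf, promoter, chr9:111019042-111019291, + strand: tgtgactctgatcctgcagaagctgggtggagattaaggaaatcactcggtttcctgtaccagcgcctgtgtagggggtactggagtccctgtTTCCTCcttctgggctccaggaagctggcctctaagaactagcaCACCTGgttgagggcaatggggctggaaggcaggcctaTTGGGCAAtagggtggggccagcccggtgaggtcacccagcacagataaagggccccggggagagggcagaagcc
Csf3r, promoter, chr4:126024409-126024658, + strand: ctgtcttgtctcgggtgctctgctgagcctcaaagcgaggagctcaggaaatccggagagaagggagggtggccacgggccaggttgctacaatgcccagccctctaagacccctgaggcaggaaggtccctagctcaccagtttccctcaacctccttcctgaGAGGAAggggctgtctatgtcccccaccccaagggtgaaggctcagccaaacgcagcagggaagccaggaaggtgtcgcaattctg
The Ltf promoter held a PU.1 match (TTCCTC on the printed strand) starting 157 bases before the start, an E protein match (CACCTG) at 113 bases and a C/EBP match (TTGGGCAA) at 75 bases. The Csf3r promoter held 1 PU.1 match, at 86 bases. PU.1 is a transcription factor of myeloid and B cells. Of the promoters at hand, its motif stood in 10 of 21 higher genes (47.6%), 6 of 14 lower genes (42.9%), 123 of 444 genes tested (27.7%) and 6252 of 27025 promoters in all (23.1%). The higher and lower genes thus held it at similar shares. The C/EBP motif stood in 2 of 21 higher genes (9.52%), 1 of 14 lower genes (7.14%), 44 of 444 genes tested (9.91%) and 2582 of 27025 promoters (9.55%). A match describes the letters and is not evidence of binding.

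Of 6 measured monocyte and macrophage markers, 4 were called higher in bone marrow and 1 lower, with a median difference of 1.69. These are 66.7% and 16.7%, beside 4.19% of all genes tested in each direction. Clec4a2, an inhibitory lectin receptor of myeloid cells, read 2142, 2963 and 2731 in bone marrow, against 101, 115 and 89.2 in thymus, a difference of 4.68 ± 0.42. Ccr2, the chemokine receptor that brings monocytes out of the marrow, read 963, 1421 and 1695 in bone marrow, against 114, 124 and 108 in thymus, a difference of 3.52 ± 0.25. Second probe sets gave 3.54 for Clec4a2 and 3.59 for Ccr2, again without overlap between the tissues. Clec7a, the receptor for fungal beta-glucan known as dectin-1, read 1995, 3144 and 3447 in bone marrow, against 661, 633 and 448 in thymus, a difference of 2.28 ± 0.29. Bone marrow replicate 1 was the lowest of its group for these 3 genes, as in 19 of the 24 higher genes, and it lay above every thymus array. Clec10a, a macrophage lectin for galactose and N-acetylgalactosamine, averaged 818 ± 131 in bone marrow and 383 ± 42.1 in thymus. Its difference of 1.09 fell below 1 without bone marrow replicate 3, at 0.97. Mrc1, the macrophage mannose receptor, was lower instead, with 198, 103 and 248 in bone marrow, against 453, 373 and 325 in thymus. Its difference of -1.14 ± 0.29 was carried in part by bone marrow replicate 2 and was -0.78 without that array, which is not a call. Siglec1, a sialic acid receptor of resident macrophages, differed by -0.31 ± 0.17 at signals under the human median. The markers summed to 6070 to 9141 in bone marrow arrays and 1426 to 1840 in thymus arrays.

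Among all 27 measured C-type lectins and collectins, 5 were called higher and 1 lower, with a median of 0.21. These are 18.5% and 3.70%, beside 4.19% of all genes tested in each direction. The fifth higher gene beside those above was Cd72, an inhibitory coreceptor of B cells. It read 250.4, 249 and 238 in bone marrow, against 71.8, 81.5 and 69.9 in thymus, a difference of 1.73 ± 0.27. Cd72 was also the only called gene of 4 measured B lineage markers. Fcer2a, the low-affinity IgE receptor, differed by 0.90 ± 0.19 and passed the test at a size below 1. It was called without bone marrow replicate 3 (1.15), which takes the B lineage count to 2. Cd22 read 5408, 4687 and 4908 in bone marrow, against 5390.3, 5677 and 4819 in thymus, with overlapping groups. Its probe set gave 2086 to 5423 in the 7 remaining tissues, brain included at 4318, so its level did not separate lymphoid tissue from other tissue here. Cxcr5, the follicular homing receptor, differed by 0.06 ± 0.11. The B lineage markers summed to 5577 to 6467 in bone marrow arrays and 5271 to 6131 in thymus arrays, a sum made up mostly of Cd22.

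Markers of other blood cells gave 2 calls, Epor and Pf4, both higher in bone marrow. Epor, the erythropoietin receptor and the only measured erythroid marker, read 847, 883 and 723 in bone marrow, against 392, 347 and 361 in thymus, a difference of 1.15 ± 0.10. Its second probe set gave 1.31. Pf4, a chemokine of platelet granules, read 781, 854 and 839 in bone marrow, against 387, 229.5 and 208 in thymus. Its difference of 1.64 ± 0.20 belongs to 1 probe set: the second, with signals of 57.4 to 67.8 in bone marrow and 65.4 to 79.9 in thymus, gave -0.17, and the mean of both was 0.73 and not called. The other 3 measured megakaryocyte and platelet markers, Itga2b (0.43 ± 0.23), Itgb3 (-0.03 ± 0.09) and Selp (-0.04 ± 0.09), were not called. Kit, the stem cell factor receptor and the only measured mast cell marker, differed by 0.44 ± 0.13. Cd44, the hyaluronan receptor of leukocytes, read 4749.9, 7442 and 5970.1 in bone marrow, against 1172, 1089 and 1124 in thymus, a difference of 2.40 ± 0.14. Junb, a subunit of the transcription factor AP-1, read 1150.3, 1640.1 and 1725 in bone marrow, against 271, 338 and 363 in thymus, a difference of 2.20 ± 0.20. In both genes the lowest bone marrow array was more than 3 times the highest thymus array. Tnfsf13b, the B cell survival factor BAFF, averaged 538 ± 52.3 in bone marrow and 169.9 ± 8.05 in thymus, a difference of 1.66 ± 0.13. Of 23 members of the tumour necrosis factor family and costimulation list, it was the only one called higher, and Cd27, Cd83 and Fas were called lower. Tnfrsf1b, a receptor of tumour necrosis factor, was just under the size threshold at 0.97 and was called without bone marrow replicate 1 (1.12) or without thymus replicate 1 (1.05).

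The T lineage genes were lower in bone marrow. Of 5 measured markers of T cells and thymocytes, 4 were called lower and 0 higher, with a median difference of -1.47. In all 5 the bone marrow arrays lay below the thymus arrays. Among all genes tested, 4.19% were called lower and 23.9% had bone marrow below without overlap. Ccr9 is the receptor of the thymus chemokine Ccl25 and is carried by immature thymocytes. It read 142, 134 and 162 in bone marrow, against 2135, 1708 and 2345 in thymus, a difference of -3.82 ± 0.14 with an adjusted p of 8.67e-17. Thymus stood alone for this gene, since the 7 remaining tissues had means of 145 to 226, in the same range as bone marrow. Cd27, a costimulatory receptor of the tumour necrosis factor family, read 409, 382 and 382 in bone marrow, against 3376, 1704 and 2282 in thymus, a difference of -2.59 ± 0.17, and its second probe set gave -3.40. Cd2, an adhesion receptor of T and natural killer cells, read 676, 617 and 615 in bone marrow, against 2369.9, 1654 and 1392 in thymus, a difference of -1.47 ± 0.15. In Cd27 and Cd2 thymus replicate 1 was the highest array, and the other thymus arrays still lay more than 2 times above every bone marrow array. Ccr7, which guides T cells in thymus and lymph node, was near the threshold, with 392, 375 and 329 in bone marrow, against 864, 736 and 682 in thymus. Its difference of -1.06 became -0.96 without thymus replicate 1 and -0.98 without bone marrow replicate 3. Il7r, the interleukin-7 receptor of lymphoid progenitors, averaged 744 ± 67.9 in bone marrow and 1008 ± 139 in thymus and was not called at -0.43 ± 0.14. The summed level of the 5 markers was 2190 to 2436 in bone marrow arrays and 6679 to 9899 in thymus arrays. Cd3e, Cd4, Cd8a and Rag1 were not among the 573 genes.

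The promoter of Ccr9 is printed as that of the T lineage gene with the largest difference.
Ccr9, promoter, chr9:123766961-123767210, + strand: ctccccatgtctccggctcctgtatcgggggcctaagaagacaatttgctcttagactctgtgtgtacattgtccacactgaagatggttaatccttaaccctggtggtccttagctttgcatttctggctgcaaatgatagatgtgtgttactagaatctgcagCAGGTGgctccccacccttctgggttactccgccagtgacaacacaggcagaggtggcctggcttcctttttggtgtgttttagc
It held 1 E protein match (CAGGTG), at 85 bases before the start. E proteins are transcription factors of early lymphocytes. Their motif stood in 3 of 21 higher genes (14.3%), 1 of 14 lower genes (7.14%), 72 of 444 genes tested (16.2%) and 4620 of 27025 promoters (17.1%).

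The chemokines split in both directions. Of 29 measured ligands, 5 were called higher and 5 lower, 17.2% each way beside 4.19% of all genes tested, with a median of -0.24. The lower ones included the 2 genes with the lowest adjusted p among ligands. Ccl25, made by thymic epithelium, read 149, 141 and 125 in bone marrow, against 3532, 2469.7 and 2380.2 in thymus, 19.9-fold lower in bone marrow with a difference of -4.32 ± 0.14 and an adjusted p of 1.12e-17. A second probe set gave -4.36. The 7 remaining tissues had means of 118 to 194, so high Ccl25 was seen in thymus alone among these 9 tissues. Ccl21b, a ligand of Ccr7, read 270.1, 243 and 231 in bone marrow, against 7155, 4944 and 4513 in thymus, a difference of -4.45 ± 0.15 with an adjusted p of 4.43e-17. The mouse genome holds near-identical copies of this gene, so the signal may be that of several copies. Cxcl12, which holds stem cells and B cell precursors in the marrow, was lower in these bone marrow samples, with 220.2, 147 and 353 in bone marrow, against 4041, 2934 and 2954 in thymus. Its difference was -3.86 ± 0.20, the bone marrow arrays spread widely, and the highest of them was still far below the lowest thymus array. Cxcl10, which draws activated T cells, averaged 186 ± 33.1 in bone marrow and 454 ± 70.5 in thymus. Ccl27a, best known from skin, averaged 166 ± 8.74 in bone marrow and 405 ± 69.9 in thymus, and its second probe set gave -0.83.

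The higher chemokines were myeloid or platelet genes. Cxcl2, a ligand of Cxcr2 that attracts neutrophils, read 1013, 1691 and 1612 in bone marrow, against 85.5, 126 and 101 in thymus, a difference of 3.77 ± 0.20 with an adjusted p of 1.92e-13. The means of thymus (104) and of the 7 remaining tissues (77.3 to 104) were alike and low. Ccl3 read 381, 449 and 587 in bone marrow, against 105, 138 and 110.3 in thymus, a difference of 1.99 ± 0.20. Ccl4 differed by 1.36 ± 0.16 and Ccl9 by 1.33 ± 0.16. These macrophage inflammatory proteins attract leukocytes through CC receptors, and the fifth higher gene was Pf4, described above. Ccl9, Ccl3 and Ccl4 follow each other among the measured genes of chromosome 11, and all were higher in bone marrow. The measured gene just before them, Ccl5, a chemokine of T and natural killer cells, went the other way with 572, 571 and 783 in bone marrow, against 1291, 1243 and 1270.3 in thymus. Its difference of -0.999 ± 0.20 passed the test and missed the size threshold narrowly. Ccl21b and Ccl27a, both lower, are also neighbours, on chromosome 4.

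Cxcl2 is the gene of this group whose promoter is printed, with matches to the NF-kappaB motif (GGG, any 2 bases, TTTCC) in capitals.
Cxcl2, promoter, chr5:90903649-90903898, + strand: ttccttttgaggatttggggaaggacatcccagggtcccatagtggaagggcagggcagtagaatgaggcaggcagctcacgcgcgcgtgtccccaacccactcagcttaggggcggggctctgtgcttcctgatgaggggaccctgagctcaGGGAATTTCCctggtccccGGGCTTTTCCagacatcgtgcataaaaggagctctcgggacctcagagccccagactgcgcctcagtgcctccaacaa
It held 2 matches, GGGAATTTCC at 97 and GGGCTTTTCC at 78 bases before the start. NF-kappaB is a transcription factor of the inflammatory response. The motif stood in 2 of 21 higher genes (9.52%), 0 of 14 lower genes, 15 of 444 genes tested (3.38%) and 378 of 27025 promoters (1.40%).

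Of 16 measured chemokine receptors, 2 were called higher and 2 lower, with a median of -0.08. This is 12.5% each way, beside 4.19% of all genes tested. Ccr2 and Cxcr2 were the higher ones and Ccr9 and Ccr7 the lower ones. Cxcl2 and its receptor Cxcr2 were both higher in bone marrow. Ccl25 and its receptor Ccr9 were both lower, and so were Ccl21b and its receptor Ccr7. Cxcr3, the receptor of Cxcl10, differed by -0.30 ± 0.15 and Ccr10, the receptor of Ccl27a, by -0.06 ± 0.10, and neither was called. Ccr9 and Ccr2 lie in a row of 6 measured receptor genes on chromosome 9 and had the lowest and the highest difference of all 16 receptors. The genes between them, Cxcr6 (-0.78 ± 0.17), Xcr1 (-0.46 ± 0.14), Ccr1l1 (0.02 ± 0.20) and Ccr3 (0.00 ± 0.13), were not called. These 4 genes, Cxcr3 and Ccr10 were named after their values were seen.

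**Figure D2:**
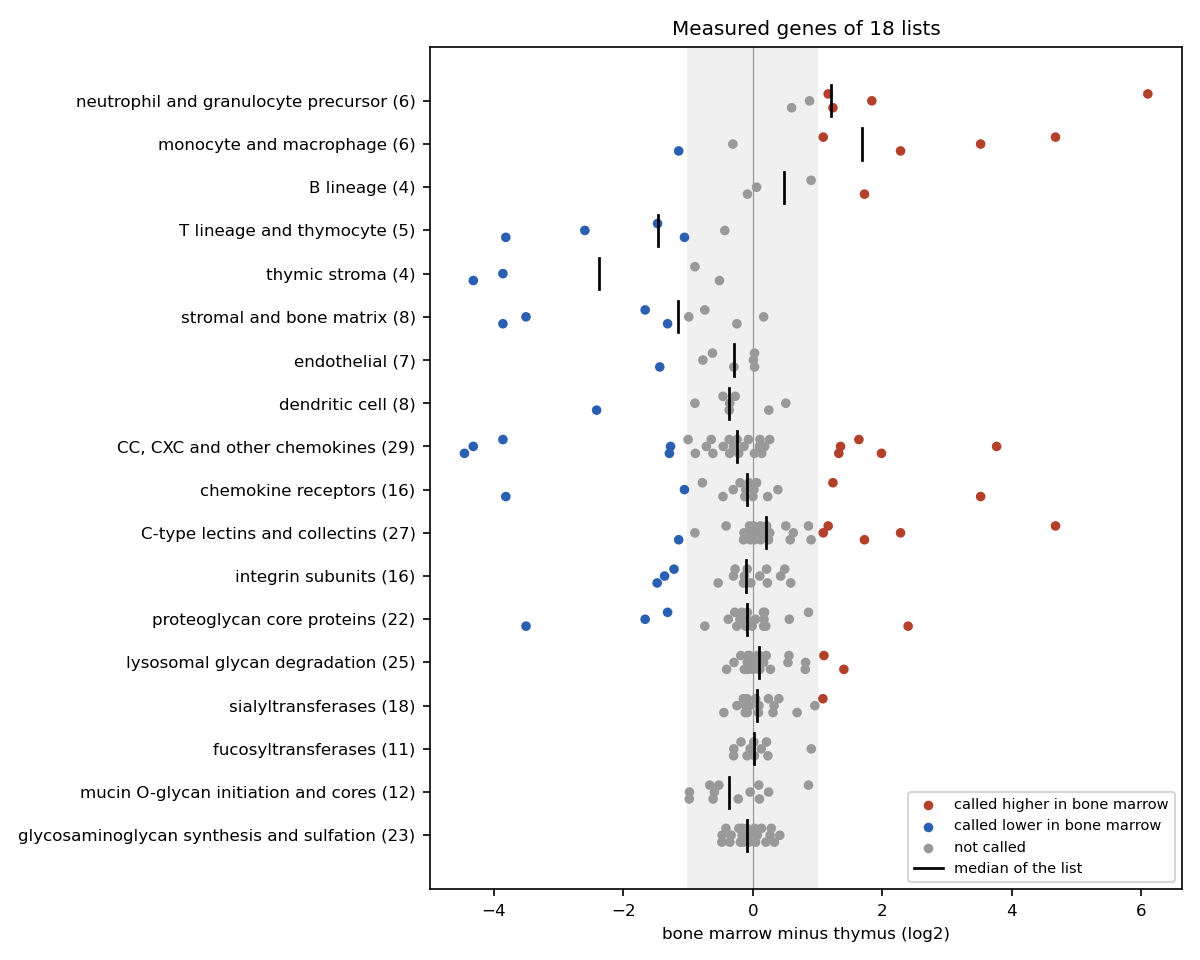
Difference of bone marrow minus thymus (log2) for each measured gene of 18 lists, with the number of genes in brackets. Red points were called higher in bone marrow, blue points lower and grey points were not called, and the black line is the median of the list. Neutrophil markers lie to the right (median 1.20), T lineage (-1.47) and thymic stroma markers (-2.38) to the left, and glycan synthesis lists lie almost wholly within the grey band of sizes under 1.

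Stromal and matrix genes were lower in bone marrow. Of 8 measured stromal and bone matrix markers, 4 were called lower and 0 higher, with a median of -1.15. Dcn encodes decorin, a small proteoglycan of collagen fibres. It read 265, 248 and 259 in bone marrow, against 4321, 2379 and 2418 in thymus, a difference of -3.50 ± 0.21, and its second probe set gave -3.40. Bgn, the related biglycan, averaged 228 ± 13.5 in bone marrow and 738 ± 202 in thymus, a difference of -1.66 ± 0.20. Lum, lumican, averaged 229 ± 1.66 in bone marrow and 595 ± 209.6 in thymus, a difference of -1.32 ± 0.30, and its second probe set gave -1.24. The 3 bone marrow arrays lay close together in all of these genes, near the human median, and thymus replicate 1 was the highest array. Dcn and Lum are neighbours among the measured genes of chromosome 10. Cxcl12, described above, was the fourth. Vcam1, an adhesion molecule of stroma and activated endothelium, differed by -0.99 ± 0.19, just under the size threshold. It was called in some alternatives, among them without bone marrow replicate 3 (-1.22) and with probe sets averaged (-1.26). Fmod (-0.74 ± 0.16), Col14a1 (-0.24 ± 0.17) and Vcan (0.17 ± 0.10), further matrix genes, were not called. The 8 markers summed to 2007 to 2599 in bone marrow arrays and 8242 to 12598 in thymus arrays. Bglap, the osteoblast gene for osteocalcin, was not among the genes measured.

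The 4 measured thymic stroma markers were all below thymus in every bone marrow array, and 2 of them, Ccl25 and Cxcl12, were called. Among all genes tested, 4.19% were called lower and 23.9% had bone marrow below without overlap. Cxcl12 also stood in the stromal list above and was not particular to thymus. Its mean was 3310 in thymus, 4349 in lymph node and 5129 in spleen. Ly75, an endocytic lectin receptor of thymic epithelium and dendritic cells, averaged 180.1 ± 17.8 in bone marrow and 334 ± 7.74 in thymus, a difference of -0.89 ± 0.17. Il7, the cytokine that sustains early lymphocytes, averaged 155 ± 10.9 in bone marrow and 222 ± 13.8 in thymus, a difference of -0.51 ± 0.14. Both passed the test at a size below 1, and the Il7 signals lay near the median of the human probe sets, 204. The markers summed to 624 to 834 in bone marrow arrays and 5875 to 8143 in thymus arrays. Cxcl12 made up 49.7% of the thymus sum.

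A few antigen-presenting and adhesion genes were called lower, and most members of their lists were not called. Cd83, carried by mature dendritic cells and thymic epithelium, read 221, 287 and 216 in bone marrow, against 1715, 1216 and 988 in thymus, a difference of -2.41 ± 0.18. It was the only called gene of 8 dendritic cell markers, whose median was -0.36. At an unadjusted limma p under 0.05, 2 of the 8 were higher in bone marrow, Cd209a (0.51) and Flt3 (0.25), and 6 were lower. These are 25.0% and 75.0% of the list, beside 18.2% and 21.8% of all genes tested. Cd74, the invariant chain that escorts class II histocompatibility molecules, averaged 1415 ± 357 in bone marrow and 3692 ± 228 in thymus, a difference of -1.41 ± 0.20, and was named after its values were seen. Of 16 integrin subunits, 3 were called lower (18.75%, beside 4.19% of all genes tested) and 0 higher, with a median of -0.11. Itgal, the alpha chain of the leukocyte integrin LFA-1, read 277, 404 and 298 in bone marrow, against 694, 897 and 1154 in thymus, a difference of -1.48 ± 0.18. Here thymus replicate 1 was the lowest of its group, unlike in most lower genes. Itga6, a laminin receptor chain, averaged 345 ± 20.4 in bone marrow and 895 ± 162 in thymus, a difference of -1.36 ± 0.16. Itgae, which binds E-cadherin on epithelium, averaged 219 ± 15.7 in bone marrow and 512 ± 70.8 in thymus, a difference of -1.22 ± 0.16. Itgb2, the beta chain that pairs with Itgal, did not follow it. It differed by 0.49 ± 0.15 and was named after its values were seen. Icam2, a ligand of LFA-1 on endothelium, averaged 575 ± 43.9 in bone marrow and 1582 ± 382 in thymus, a difference of -1.44 ± 0.14, and was the only called gene of 7 endothelial markers (median -0.29). Of 8 immunoglobulin family and other leukocyte adhesion genes, Cd2 and Icam2 were called lower and Cd44 higher.

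Growth factor and receptor genes gave a few large differences. Igfbp5, a binding protein of insulin-like growth factors, read 147, 114 and 162 in bone marrow, against 897, 798 and 925 in thymus, a difference of -2.64 ± 0.19. Igf1, the growth factor itself, read 79.0, 66.7 and 109 in bone marrow, against 585, 413 and 375 in thymus, a difference of -2.43 ± 0.19. Osmr, the oncostatin M receptor of stromal cells, read 75.7, 76.5 and 80.1 in bone marrow, against 346, 312 and 272 in thymus, a difference of -1.99 ± 0.17, and its second probe set gave -2.32. In these 3 genes the bone marrow signal lay under the human median in every array. Osmr was the only lower gene of 46 interleukins, colony-stimulating factors and their receptors, and Csf3r and Epor were the only higher ones. Fas, the death receptor, averaged 261 ± 40.1 in bone marrow and 651 ± 99.9 in thymus, a difference of -1.32 ± 0.16. Lipa, the lysosomal acid lipase, is its neighbour among the measured genes of chromosome 19 and averaged 721 ± 65.2 in bone marrow and 1502 ± 331 in thymus. Its difference of -1.04 became -0.88 without thymus replicate 1 and -0.98 without bone marrow replicate 1. The limma fit called 0 of 31 TGF-beta superfamily genes (median 0.00), 0 of 22 Wnt and Frizzled genes (0.01) and 0 of 26 fibroblast growth factor genes (0.01). An unadjusted p under 0.05 was seen in 8, 5 and 4 of them, and in 229 of all 573 genes.

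Few enzymes of glycan synthesis and breakdown were called. The 11 enzyme lists together held 149 genes, of which 3 were called higher and 0 lower (2.01%, beside 8.38% of all genes tested). Their median difference was -0.04 and the largest in size was 1.41. The median of the sizes was 0.20 for these enzymes and 0.21 for all genes, so that a typical enzyme differed about as much as a typical gene. The call shares were not tested against each other, and Pigq and Ugt1a6a, called enzymes described below, are outside these lists. The 4 chemokine, cytokine and tumour necrosis factor lists held 114 genes, of which 10 were called higher and 11 lower (18.4%). That share depends on which lists are joined. Left out were the TGF-beta, Wnt and Frizzled, and fibroblast growth factor lists, with 0 called. The heparin-binding and vascular growth factor list, with 0 of 22 called higher and 1 lower, was also left out.

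Of 18 measured sialyltransferases, 1 was called. St3gal5, which makes the ganglioside GM3, read 1665, 1666 and 1754 in bone marrow, against 885, 775 and 745 in thymus, a difference of 1.08 ± 0.11. St8sia4, a polysialic acid synthase, averaged 1425 ± 276 in bone marrow and 730.2 ± 123 in thymus, a difference of 0.96 ± 0.18, and St3gal6, which sialylates selectin ligands, averaged 718 ± 28.5 in bone marrow and 451 ± 77.4 in thymus, a difference of 0.69 ± 0.16. Both passed the test below the size threshold. St8sia4 was called without bone marrow replicate 1 (1.12) and without thymus replicate 1 (1.08). The other 15 lay between -0.45 (St6galnac2) and 0.40 (St8sia3), with a median for the list of 0.07. The limma fit called 0 of the 11 fucosyltransferases, of which 3 had an unadjusted p under 0.05. Fut7, the leukocyte enzyme that completes sialyl Lewis x, read 386, 433 and 536 in bone marrow, against 237, 244 and 237 in thymus, a difference of 0.90 ± 0.12 without overlap, and it was called without bone marrow replicate 1 (1.01). Fut4, which also adds fucose to leukocyte glycans, differed by 0.21 ± 0.10. The remaining fucosyltransferases lay between -0.30 (Fut11) and 0.23 (Fut1). Pofut1, which puts O-fucose on Notch receptors, differed by 0.13 ± 0.11, with a 95% interval of -0.09 to 0.35. Fringe genes were not among those measured.

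The 12 genes of mucin-type O-glycan initiation and core formation, as listed, had a median of -0.37, and 0 were called by limma. The list holds Ogt, which is not a mucin-type enzyme. Without it, a check added after seeing the data, the median of the other 11 was -0.22, and 7 had an unadjusted p under 0.05, 2 higher and 5 lower in bone marrow. Galnt7, which extends initiated O-glycans, averaged 403 ± 63.8 in bone marrow and 795 ± 119.5 in thymus, a difference of -0.98 ± 0.14. Ogt, which adds N-acetylglucosamine to proteins inside the cell, averaged 1177 ± 129.9 in bone marrow and 2409.6 ± 905 in thymus, a difference of -0.98 ± 0.18. Both lay just under the size threshold and were called without bone marrow replicate 2, at -1.06 and -1.01, or without any of several other arrays. Galnt3, an initiating enzyme, went the other way with 0.86 ± 0.17. C1galt1, the core 1 enzyme, differed by -0.61 ± 0.17. The fit also called 0 of 7 N-glycan branching genes, 0 of 17 galactosyltransferase and poly-LacNAc genes, 0 of 23 glycosaminoglycan genes and 0 of 25 nucleotide sugar genes. The counts at an unadjusted p under 0.05 were 2, 7, 8 and 7 in this order, and the 7 galactosyltransferase genes were all higher and the 7 nucleotide sugar genes all lower in bone marrow. These are 41.2% and 28.0% of their lists, beside 229 of all 573 genes (18.2% higher and 21.8% lower). Among 4 galectins, Lgals8 differed most, by -0.72 ± 0.16.

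Lysosomal enzymes gave 2 higher genes of 25 (8.0%, beside 4.19% of all genes tested) and 0 lower, with a median of 0.10. Hexa, the alpha chain of beta-hexosaminidase, read 1063, 1315 and 1669.6 in bone marrow, against 546, 498 and 459 in thymus, a difference of 1.41 ± 0.17. Galns, the sulfatase for keratan sulfate and chondroitin 6-sulfate, read 450.1, 514 and 688 in bone marrow, against 246, 272 and 243 in thymus. Its difference of 1.10 became 0.93 without bone marrow replicate 3. Ugt1a6a, a UDP-glucuronosyltransferase that conjugates phenolic compounds and drugs, read 666, 1005 and 1148 in bone marrow, against 217, 138 and 124 in thymus, a difference of 2.57 ± 0.24. Members of this family are similar in sequence, so the probe set may not separate them. Pigq, of the first step of the glycosylphosphatidylinositol anchor, differed by 1.15 ± 0.12, and Tnfrsf19, a receptor of the tumour necrosis factor family, by 1.36 ± 0.23 at bone marrow signals under the human median. Pigq and Tnfrsf19 were named after their values were seen.

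The 7 remaining tissues place the called genes among others. The higher and lower genes were picked by their bone marrow and thymus values. Counts of peaks in these 2 tissues thus partly follow from that choice and are a description. Of the 24 higher genes, 16 had their highest mean of all 9 tissues in bone marrow, while 50 of the 573 genes did. Cxcl2, Ltf, Ccr2, Junb and Csf3r were of this kind. Ugt1a6a was not: liver (5567) and kidney (3101) exceeded bone marrow (939.8), and thymus was low. Of the 24 lower genes, 4 peaked in thymus (Ccl25, Ccr9, Cd27 and Itgal), while 37 of the 573 genes did. Another 7 peaked in lymph node, 3 in spleen and 5 in lung. Ccl21b, for example, averaged 5537 in thymus, 9377 in lymph node and 4821 in spleen. Bone marrow had the lowest mean of all 9 tissues in 6 of the lower genes.

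**Figure D3:**
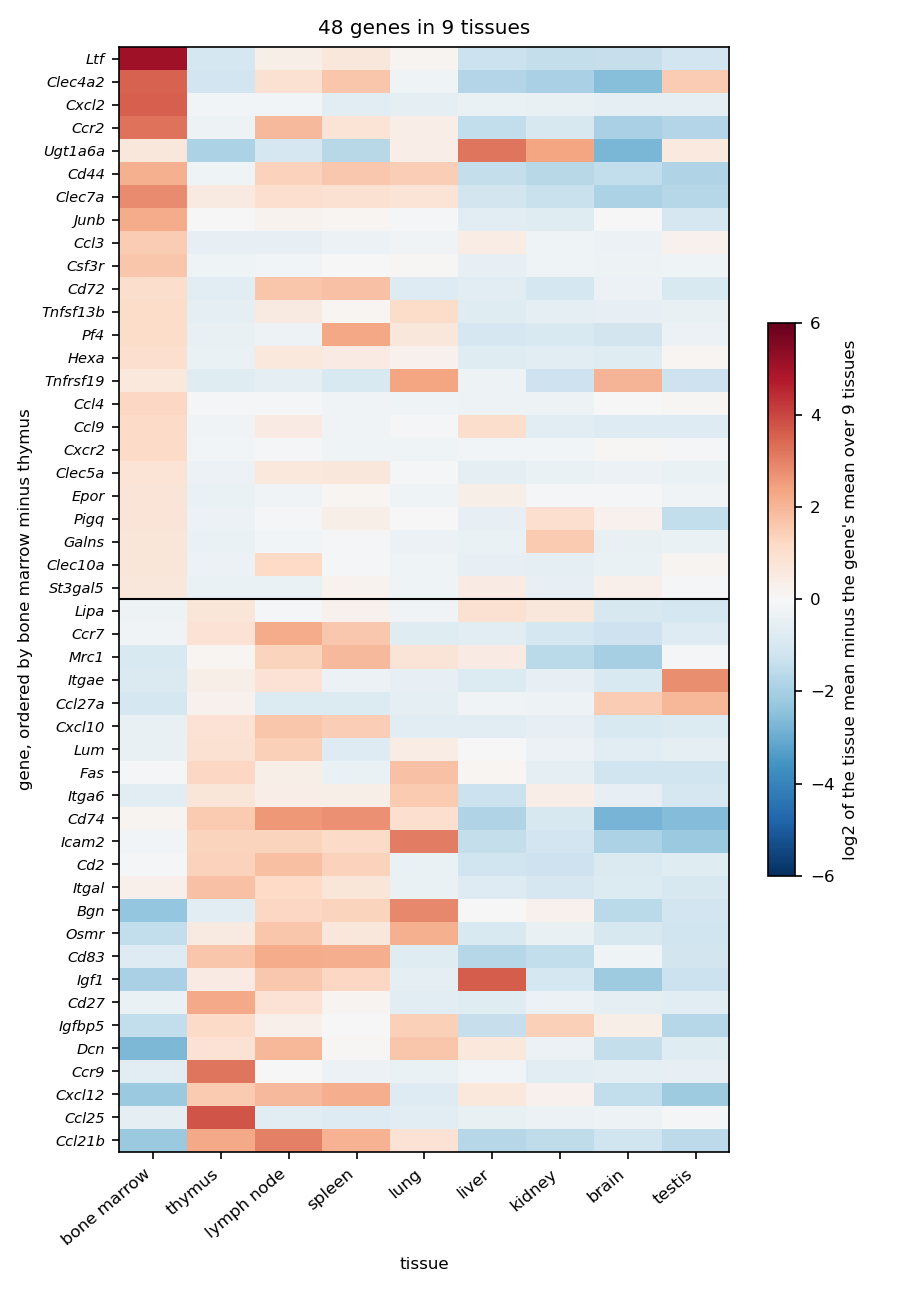
Tissue means of the 48 called genes in 9 tissues, as log2 of the mean minus the gene's average over tissues, with genes ordered by bone marrow minus thymus and a line between the higher and the lower ones. Bone marrow is red for Ltf, Clec4a2, Cxcl2 and Ccr2, thymus is red for Ccl25 and Ccr9, and several lower genes such as Ccl21b are also red in lymph node and spleen.

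Bone marrow and thymus were then each set against the equal-weight mean of the 7 remaining tissues in the same fit. Bone marrow had 36 genes higher (6.28%) and 24 lower (4.19%), 10.5% in all. Thymus had 33 genes higher (5.76%) and 13 lower (2.27%), 8.03% in all. Both contrasts share those 7 tissues, and each shares its own arrays with the direct comparison, so the counts that follow are a description. Of the 24 genes higher in bone marrow than in thymus, 16 were called higher in bone marrow against the 7. Thymus was called lower against the 7 for 1 of them (Ugt1a6a, -2.10) and higher for 1 (Clec7a, 1.01, beside 3.30 in bone marrow). Of the 24 lower genes, bone marrow was called lower against the 7 for 9 and thymus higher for 12. Ccl25 stood at -0.08 in bone marrow and 4.24 in thymus, and Ccr9 at -0.25 and 3.57 in the same order, so that bone marrow was near the other tissues. Dcn stood at -2.95 in bone marrow and 0.56 in thymus, and Igf1 at -2.17 in bone marrow and 0.26 in thymus. In both, thymus was closer than bone marrow to the mean of the 7. Those tissues differed widely, with means of 629 to 6614 for Dcn and 74.3 to 4057 for Igf1. Dcn in thymus passed the limma test at a size below 1 (adjusted p 0.00739). Bgn was below the 7 in both, at -2.73 in bone marrow and -1.07 in thymus.

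**Figure D4:**
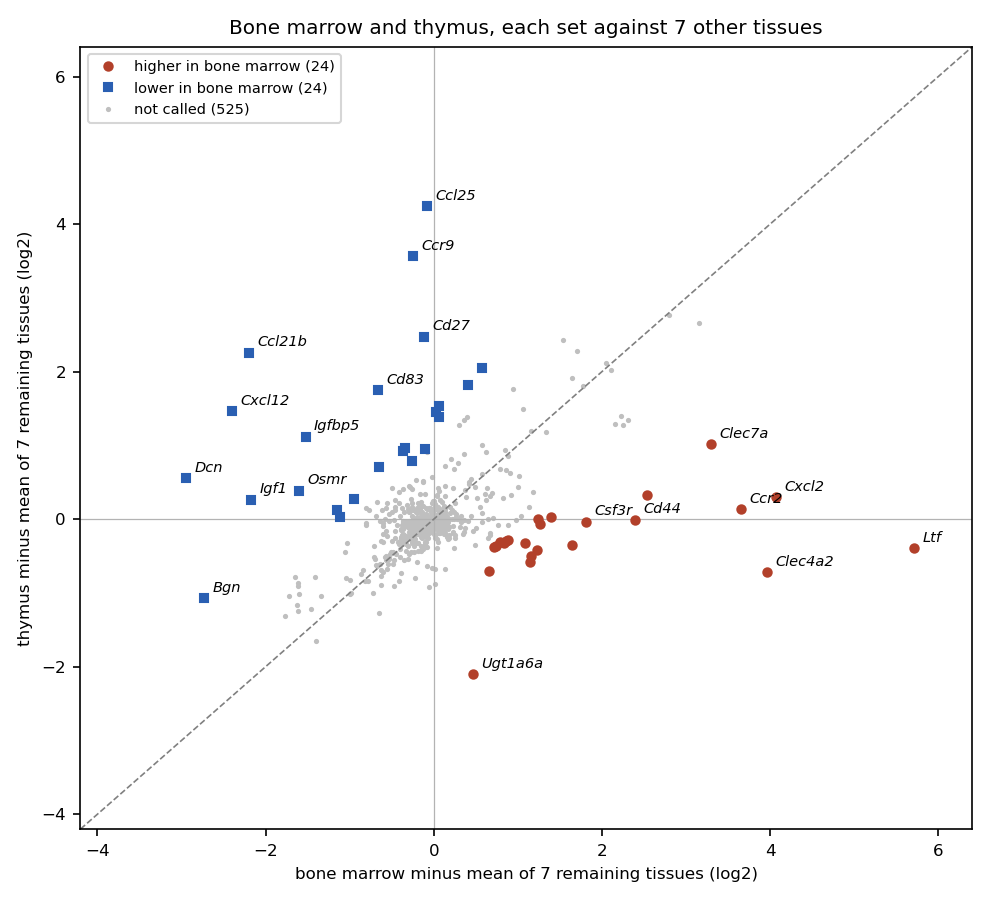
Each of 573 genes by its difference between bone marrow and the mean of 7 remaining tissues (horizontal, log2) and by that between thymus and the same mean (vertical, log2); the dashed diagonal marks equal levels in bone marrow and thymus. Ltf lies far right at 5.71 on the bone marrow axis, Ccl25 high at 4.24 on the thymus axis, and Ccl21b, Cxcl12 and Igfbp5 lie to the upper left.

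Many well-expressed genes differed little. Among the 50 genes with the highest mean over the 6 arrays, the 5 with the smallest difference were Smpd1, Aldoa, Tnfrsf1a, Cd69 and Ybx1. Tnfrsf1a, a receptor of tumour necrosis factor, read 1184, 1536 and 1535 in bone marrow, against 1496, 1345 and 1466 in thymus, with a 95% interval of -0.24 to 0.18 for the difference. The interval of Aldoa was wider, -0.73 to 0.69, through thymus replicate 1. Of the 525 genes not called, 470 had a 95% interval within 1 on either side of 0, and 55 did not. The called genes nearest the size threshold were Lipa (-1.04), Ccr7 (-1.06) and St3gal5 (1.08). The nearest genes outside it were Ccl5 (-0.999), Il10ra (0.99) and Vcam1 (-0.99).

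Further mouse probe sets gave a second reading of some called genes. By their names they come from the same reference sequence as the chosen probe sets, so these readings are not independent. Of the 48, 11 had another mouse probe set, and 10 of these 11 gave the same sign, 9 of them by 1 or more. Pf4 was the one that did not, as described above. For 42 genes the array also held 50 human probe sets, of which 31 had the same sign and 19 the opposite one. Only 2 of these reached a difference of 1 in the same direction, Igf1 with -1.26 and Itga6 with -1.40. The human probe sets served above as a measure of non-specific signal, so their signs are not a check of the calls.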

How the data were processed

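Biotin-labelled total RNA of 9 tissues was measured on 1-colour arrays, 3 a tissue, per the labels. The deposited values are linear intensities, 1 for each probe set on each array. How the authors summarised, background-corrected and scaled these intensities is not given in the sources used here. No pair of arrays held identical values, and 0 columns of per-sample values were left unused.

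Gene symbols of probe sets came from the annotation of the platform (1563 had 1 symbol, 2 had several and 248 had none). Values under 16 were raised to 16 (2 values) and log2 taken from the deposited intensities. limma 3.58.1 in R 4.3.3 was fitted over all 27 arrays with 1 coefficient per tissue (lmFit, contrasts.fit and eBayes), so all tissues shared 1 estimate of the spread, with Benjamini-Hochberg adjustment over 573 genes. The members and the 38 gene lists, 11 of them cell type markers, were chosen with earlier results of these data known, as were the promoter motifs.

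Named genes were the 12 with the largest differences in each direction, called members of lists and some uncalled members of lists of up to 12. Short lists were thus not all named in full. Also named were the 5 most stable of 50 strong genes, the 3 nearest each side of the size threshold, and sialyl- and fucosyltransferases. On simulated data with 200 of 573 genes changed, the fit called 0 of 373 unchanged genes and 2% of those changed by 0.5. It called 98% of those changed by 1.5 and 100% of those changed by 2 or 3. A call needs a size of at least 1, so these shares partly follow from that threshold, and no size near 1 was simulated. The noise was independent between genes, so a shift of a whole array, as in thymus replicate 1, was not simulated. Replicate numbers in the titles were checked for pairing: same-numbered arrays of bone marrow and thymus had residual correlations of 0.06, -0.04 and -0.25. Differently numbered ones had -0.19 to 0.20. Deviations from a mean of 3 arrays cannot show whether same-numbered arrays came from the same animal. The labels do not say, and no pairing was used in the main fit. Alternatives were other scalings, filters, floors, probe set rules, fits and each array left out.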

Additional observations from a re-analysis of the deposited data

Results flagged for a closer look

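Ccl21b, Cxcl12 and Igfbp5 stood below the mean of the 7 remaining tissues in bone marrow and above it in thymus, each past the test. Ccl21b differed by -4.45 between bone marrow and thymus, standing at -2.20 in bone marrow and 2.26 in thymus against the 7. Cxcl12 differed by -3.86, with -2.40 in bone marrow and 1.46 in thymus. Igfbp5 differed by -2.64, with -1.52 in bone marrow and 1.12 in thymus. The difference between the tissues was tested by the direct contrast, with adjusted p-values of 4.43e-17, 1.95e-13 and 5.53e-11 from limma in this order. Why these genes differ was not tested.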

How the results depend on the processing

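Across 16 alternatives the number of genes higher in bone marrow than in thymus ran from 16 to 31 and the number lower from 21 to 28, beside 24 each. The smallest counts came from leaving out the genes with the lowest means, which leaves 382 to test. With each array left out in turn the counts were 24 to 31 higher and 23 to 28 lower. Of the 48 called genes, 42 kept their call in every alternative run, 0 changed sign, and 6 lost the call somewhere: Ccr7, Lipa, Mrc1, Galns, Clec10a and Pf4. Quantile normalization took Ccr7 to -0.98 and Lipa to -0.93, and array weights took them to -0.97 and -0.95. Other genes gained a call. With the probe sets of a gene averaged, Clec4e (2.02) and Tnfrsf1b (1.18) were also called higher. Vcam1 (-1.26), Ogt (-1.21) and Icam1 (-1.12) were also called lower there. On the linear scale, fold changes moved by over 1.5 times for Csf3r (log2 difference 3.85) and Pf4 (0.73) when probe sets of a gene were averaged, and for Ltf (5.33) under quantile normalization, where the cause was not tested. The number of genes lower in thymus than in the 7 remaining tissues was 13. It was 8 after median centring, 8 over those 382 genes, 7 with an offset of 16, and 7 to 15 with 1 array left out, the lowest without thymus replicate 3. No scaling moved the median over all genes by 0.1. In list counts, added after seeing the data, 1177 of 1216 values under alternatives stayed within 1.5 times and 39 moved. Many counts were 0 and stayed 0, which counts as unchanged, so the share says little of the nonzero counts. Among those that moved, higher chemokines fell from 5 to 1 without the genes of lowest mean. Higher B lineage genes went from 1 to 0 there and to 2 without bone marrow replicate 3. With the replicate number as a block, 24 genes were called higher and 24 lower, so the block changed no count. The labels do not say whether same-numbered arrays share an animal. Signal near that of the human probe sets limits what can be said of low levels.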

Other observations

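Some cytokine and granule genes differed by less than the size threshold. Of 46 interleukin and colony-stimulating factor genes, 14 were higher and 10 lower in bone marrow at an unadjusted p under 0.05. These are 30.4% and 21.7% of the list, beside 18.2% higher and 21.8% lower of all genes tested. Called higher were 2 of the 46 (4.35%) and called lower 1 (2.17%), beside 4.19% of all genes in each direction. Kitl, the stem cell factor, had 184, 140.1 and 142 in bone marrow, against 352, 259 and 239 in thymus, a difference of -0.86. Il16, a T cell cytokine, had 627, 775 and 776 in bone marrow, against 1442, 1181 and 1218 in thymus, a difference of -0.82. Srgn, the proteoglycan serglycin of leukocyte granules, had 4410, 5903 and 5084 in bone marrow, against 4039, 2296 and 2378 in thymus, a difference of 0.86 that was 1.12 and called without thymus replicate 1. Prg2, an eosinophil granule gene, averaged 315 in bone marrow and 159.7 in thymus, a difference of 0.96 that was called without bone marrow replicate 2 (1.10) or thymus replicate 1 (1.03). Lta4h, an enzyme of leukotriene synthesis, averaged 3616 in bone marrow and 1863 in thymus, a difference of 0.97 that was 1.15 and called without thymus replicate 1. These 5 genes were named after their values were seen.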
